A study of Mus musculus with 4 samples.

Results

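The ErbB receptors and neuregulin-type ligands were followed as 10 genes: the receptors Egfr, Erbb2, Erbb3 and Erbb4, the neuregulins Nrg1, Nrg2 and Nrg3, and the EGF-type ligands Hbegf, Tgfa and Btc. They were taken by gene symbol, and all 10 were found among the 19937 genes measured, each through 1 probe set annotated to that gene alone. The cells came from gliomas of C57/Bl6 mice, started by injecting embryos at embryonic day 14 with a retrovirus that expresses PDGF-B together with EGFP. EGFP-positive tumour cells were isolated by flow sorting after dissociation, and both groups carried the same PDGF-B/EGFP overexpression. The early-onset, low-grade group held 2 samples, each a pool of cells from 2 tumours (pool 1 and pool 2). The late-onset, high-grade group held 2 samples, each from 1 tumour (tumour 1 and tumour 2). The sources used here do not give the age of the animals, and there was no sample of normal brain or of another tumour model.

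ErbB receptors are tyrosine kinases that signal as pairs. EGF-type ligands such as Tgfa bind Egfr, Nrg1 and Nrg2 bind Erbb3 and Erbb4, Nrg3 binds Erbb4, and Hbegf and Btc can bind both Egfr and Erbb4. Erbb2 has no known direct ligand and Erbb3 has little kinase activity of its own, so each depends on a partner. In the nervous system, neuregulin signalling is best known for guiding Schwann cells and for its roles in oligodendrocyte and interneuron development, and EGFR amplification is common in human glioblastoma.

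Expression is given as the deposited log2 value, in which a difference of 1 is a 2-fold change, and changes are late-onset minus early-onset. The values of different genes are not compared as levels, since probe sets differ in how strongly they bind. The median absolute gap over all genes was 0.12 between the pools and 0.14 between the tumours. The cells were checked against 11 measured markers of glioma cells and oligodendrocyte progenitors. Sox10 (11.49 to 11.52 over the 4 samples) and Olig2 (11.89 to 12.12) changed little, but all 11 changes lay below 0, at a median of -0.45. Of the 11, 0 rose and 3 fell (C1ql1 by 0.84, Cspg5 by 0.74 and Pdgfra by 0.45), and Neu4 stood lowest at -1.81 (limma adjusted p = 0.0544). Called genes were 27.3% of the 11, against 14.7% of all genes. The summed linear value of the 11 was 57328 and 60217 in the pools and 44013 and 42900 in the tumours. C1ql1 and Cspg5 lost their calls without either pool (limma adjusted p = 0.0552 to 0.117). Pdgfra lost its call with any 1 sample left out (limma adjusted p = 0.0795 to 0.229), after quantile normalization (0.0542) and after median subtraction (0.0588). Transcripts of macrophages and microglia were also present, and much more so in the pools. The summed linear value of 14 such markers was 25370 and 21438 in the pools and 1467 and 1979 in the tumours. In sorted bulk cells, fewer cells of a type and less RNA per cell cannot be told apart.

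In late-onset cells the neuregulin receptor gene Erbb3 rose and the neuregulin genes Nrg1 and Nrg3 fell. Erbb3 was 3.08-fold higher, Nrg1 2.14-fold lower and Nrg3 3.43-fold lower. The other 7 genes were not called at an adjusted p of 0.05 (limma, Benjamini-Hochberg over all genes). In all, 3 of 10 members were called, 1 higher and 2 lower, where 14.7% of all genes were called (6.59% higher and 8.12% lower). The median change of the 10 was -0.22, against -0.01 over all genes. The groups did not overlap in 7 members, where 58.9% of all genes did not overlap.

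**Figure D1:**
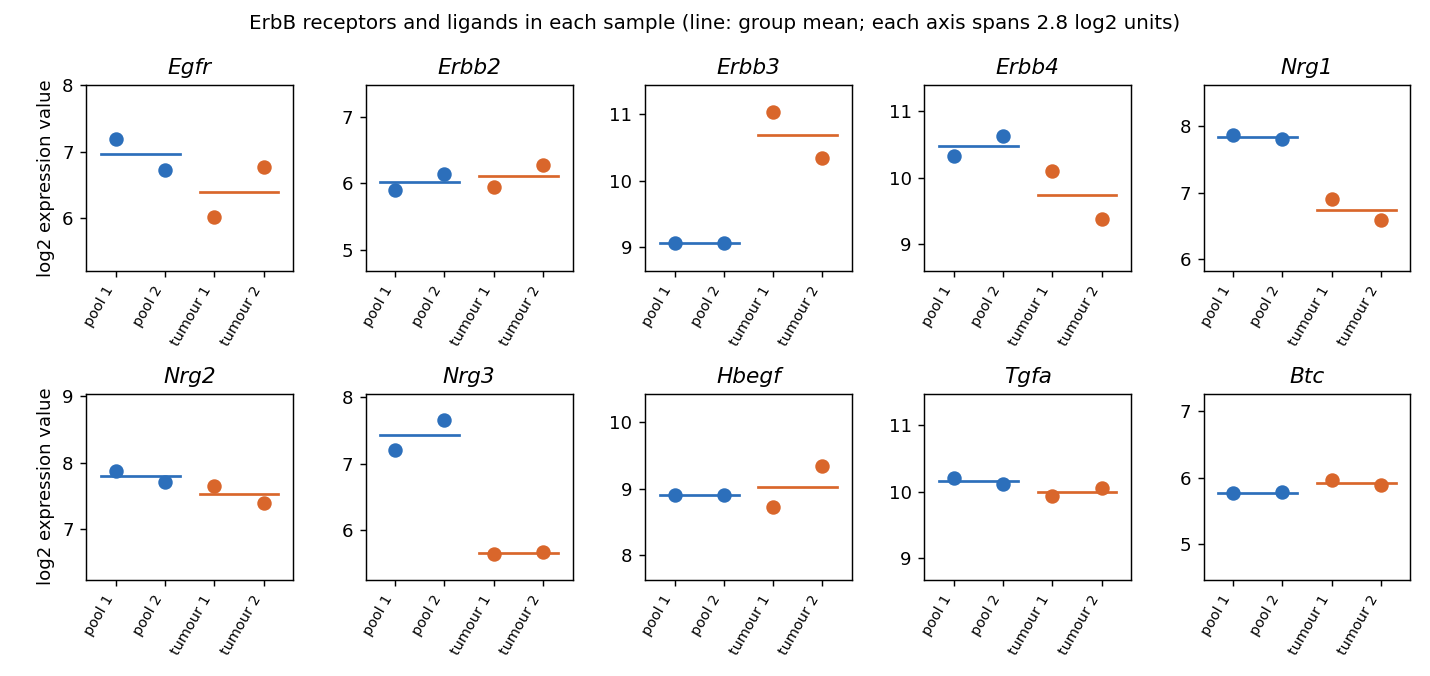
Log2 expression value (vertical axis) of each of the 10 genes in the 2 early-onset pools (blue) and the 2 late-onset tumours (orange), with a line at each group mean. Both tumours lie above both pools for Erbb3 and Btc and below them for Erbb4, Nrg1, Nrg2, Nrg3 and Tgfa. The tumours differ most from each other for Egfr, at 6.02 and 6.77.

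Among the receptors, Erbb3 stood at 9.06 in each pool, at 11.03 in tumour 1 and at 10.34 in tumour 2. Both tumours were well above both pools, and the pools were almost equal. The mean went from 9.06 ± 0.0049 to 10.68 ± 0.49 (SD, n = 2 each), a change of 1.62 (SE 0.23, 95% interval 1.04 to 2.21, limma adjusted p = 0.0133). The tumours differed by 0.69, more than the 90th percentile of all genes, 0.41. The rise was 1.28 without tumour 1 and 1.97 without tumour 2. With 1 pool left out the change was nearly the same, 1.63 without pool 1 and 1.62 without pool 2, but the call was lost (limma adjusted p = 0.0712 and 0.0788). In those fits the lone pool is assumed to vary like the tumours.

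Erbb4, the other neuregulin receptor and the one with an active kinase, moved the opposite way without passing the test. It stood at 10.32 and 10.62 in pools 1 and 2 and at 10.10 and 9.38 in tumours 1 and 2. Both tumours were lower than both pools, tumour 1 by little. The change was -0.74 (SE 0.26, 95% interval -1.39 to -0.08, limma adjusted p = 0.129). The interval is for this gene alone and leaves out 0, whereas the p adjusted over all genes does not pass. Erbb4 lies on chromosome 1, where the 578 brighter genes had a median 0.40 higher in tumour 1 than in tumour 2. On the other chromosomes that median lay between -0.06 and -0.01. Without tumour 1 the change of Erbb4 was -1.10 and passed (limma adjusted p = 0.0233), and without tumour 2 it was -0.38. The part of chromosome 1 in the tumour 1 value was not tested.

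Egfr, the receptor of the EGF-type ligands, was not called, and its samples overlapped. It stood at 7.19 and 6.73 in pools 1 and 2 and at 6.02 and 6.77 in tumours 1 and 2. Tumour 1 was the lowest sample, while tumour 2 lay between the pools. The change was -0.57 (SE 0.29, 95% interval -1.30 to 0.16, limma adjusted p = 0.265), which allows a fall as large as that of Nrg1 or a slight rise. It was -0.94 without tumour 2 and -0.19 without tumour 1.

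Erbb2, the receptor without a ligand that serves as a shared partner, was at 5.89 and 6.14 in the pools and at 5.95 and 6.27 in the tumours. The samples interleaved. The change was 0.09 (SE 0.16, 95% interval -0.31 to 0.49, limma adjusted p = 0.763), so a 2-fold change in either direction lay outside the interval for this gene. Its sign turned without pool 1 (-0.033) and without tumour 2 (-0.071). This was a dim probe set, with its mean at the 32.9th percentile of all genes, and RMA values understate the changes of dim genes. A second probe set, annotated to both Erbb2 and Sympk, was not used and was dimmer still, between 4.43 and 4.65.

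Within each sample, the Erbb3 value was set against that of each other receptor, and only the shift of this difference between samples was read. Erbb3 minus Erbb4 was -1.26 and -1.57 in the pools and 0.93 and 0.96 in the tumours. The tumours nearly coincided here, although each gene alone was higher in tumour 1, by 0.69 and 0.72. Erbb4 lies on chromosome 1, whose brighter genes had a median 0.40 higher in tumour 1, and the part of that chromosome in this likeness was not tested. Erbb3 minus Egfr was 1.87 and 2.33 in the pools and 5.01 and 3.57 in the tumours, a shift of 2.19 in the mean. Erbb3 minus Erbb2 was 3.17 and 2.92 in the pools and 5.08 and 4.07 in the tumours, a shift of 1.53. In all 3 differences both tumours lay above both pools. As all 3 share the Erbb3 values, which rose by themselves, they are not separate results. These shifts are given as a description and were not tested.

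**Figure D2:**
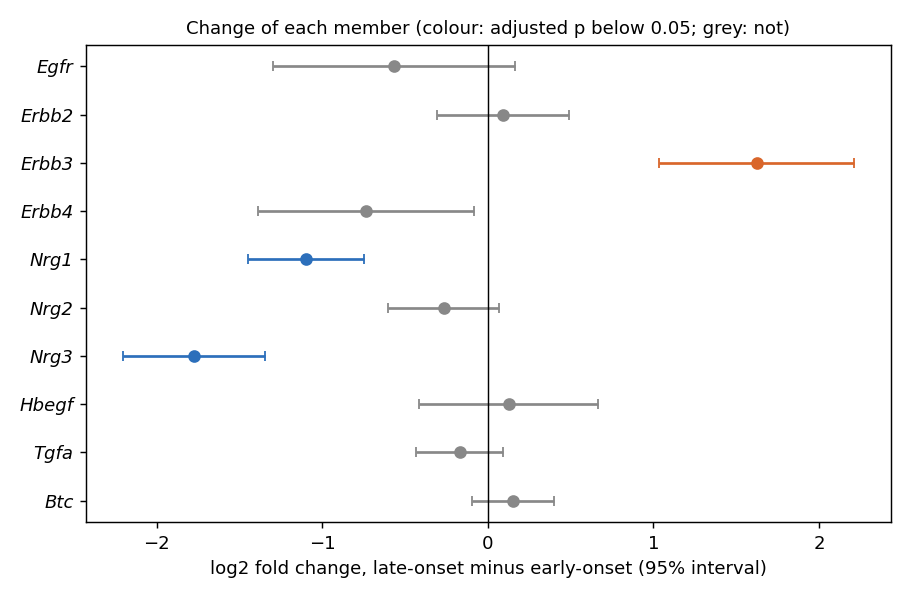
Log2 fold change, late-onset minus early-onset, of the 10 genes with its 95% interval from limma; colour marks an adjusted p below 0.05 over all genes (orange higher, blue lower). Erbb3 at 1.62 is the one called gene on the right, Nrg1 at -1.10 and Nrg3 at -1.78 are the called genes on the left, and the interval of Egfr spans from -1.30 to 0.16.

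Nrg3, which encodes a neuregulin made mainly in the nervous system that binds Erbb4, had the largest change of the 10. Its values were 7.21 and 7.66 in pools 1 and 2 and 5.65 and 5.68 in tumours 1 and 2. The tumours were nearly equal and lay far below both pools. The mean fell from 7.44 ± 0.32 to 5.66 ± 0.021 (SD, n = 2 each), a change of -1.78 (SE 0.17, 95% interval -2.20 to -1.35, limma adjusted p = 0.00537). It was called in all 13 alternative settings tried, at -2.004 to -1.55 with 1 sample left out. The late-onset mean was close to the lower quartile of all gene means, 5.52, and no detection calls were used here, so how much Nrg3 transcript the tumours still held was not measured.

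Nrg1, the neuregulin that binds Erbb3 and Erbb4 and is made in many isoforms, also fell. It stood at 7.87 and 7.82 in the pools and at 6.90 and 6.58 in the tumours. Both tumours lay about 1 log2 unit below the pools. The mean fell from 7.84 ± 0.035 to 6.74 ± 0.23 (SD, n = 2 each), a change of -1.10 (SE 0.14, 95% interval -1.45 to -0.75, limma adjusted p = 0.00962). The call was lost without pool 1 (-1.07, limma adjusted p = 0.0621) and without pool 2 (-1.12, limma adjusted p = 0.0598), with almost no change in size. One probe set covers the gene, so the isoforms of Nrg1 were not separated.

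Nrg2, the third neuregulin, was lower in both tumours (7.66 and 7.40) than in both pools (7.88 and 7.71), but tumour 1 and pool 2 were only just apart. The change was -0.27 (SE 0.13, 95% interval -0.60 to 0.07, limma adjusted p = 0.256). A fall as large as that of Nrg1 or Nrg3 lay outside this interval.

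Most neuron markers were lower beside the neuregulins. Of 11 measured, 6 fell and 0 rose, among them the synaptic genes Snap25 (-1.85) and Syt1 (-1.14) and the neurofilament gene Nefl (-0.93), and their summed linear value was 2722 and 3247 in the pools and 1506 and 1864 in the tumours. Of 12 astrocyte markers, 7 fell and 0 rose, led by Slc4a4 (-2.28), the glutamate transporter gene Slc1a2 (-1.93) and S1pr1 (-1.87), with sums of 12201 and 15161 in the pools and 6678 and 7358 in the tumours. Called genes were 54.5% of the neuron and 58.3% of the astrocyte markers, against 14.7% of all genes. In each list 1 marker lay above 0, and neither was called. Nefm, the other neurofilament gene, stood at 0.44 (limma adjusted p = 0.41). Sox9 stood at 0.77, with both tumours above both pools (limma adjusted p = 0.062). The part of neurons, astrocytes and macrophages in the lower Nrg1 and Nrg3 values was not tested. Nefl lost its call with any 1 sample left out, Syt1 without either pool or tumour 1, and Snap25 without pool 2 (limma adjusted p at most 0.175). The calls of Syt1 and Nefl were also lost after quantile normalization (limma adjusted p = 0.0567 and 0.0572) and median subtraction (0.0508 and 0.0546), and that of Nefl after cyclic loess (0.0554) and with array weights (0.051).

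Because Nrg3 was called in every setting, the stretch before its gene is shown. RefSeq's promoter table for mouse GRCm38.p6 held 300-base windows for 6 of the members, Egfr, Erbb2, Erbb4, Nrg3, Tgfa and Btc. The bases printed here lie before every annotated start of Nrg3, on the minus strand at chr14:39473236-39473338, and capitals mark the CpG dinucleotides.
Nrg3: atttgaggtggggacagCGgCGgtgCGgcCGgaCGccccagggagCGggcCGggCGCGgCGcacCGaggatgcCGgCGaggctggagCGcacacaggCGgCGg

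This stretch of 103 bases held 16 CpG dinucleotides, and the full 300-base window of Nrg3 held 36. Over all 32851 windows in the table the median was 7 and the upper quartile 20. The windows of Tgfa (24), Erbb2 (21), Erbb4 (17) and Egfr (15) were also above that median, and the window of Btc (5) was below it. On either strand, the GC box GGGCGG was found in the windows of Tgfa and Egfr (35.7% of all windows), the CCAAT box CCAAT in that of Erbb2 (37.4%) and the TATA box TATAAA in none of the 6 (13.6%). These are descriptions of sequence, and neither methylation nor factor binding was measured.

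The EGF-type ligands were not called. Tgfa, a ligand of Egfr, stood at 10.21 and 10.12 in the pools and at 9.94 and 10.05 in the tumours. Both tumours were slightly lower than both pools. The change was -0.17 (SE 0.10, 95% interval -0.43 to 0.09, limma adjusted p = 0.35), so a 2-fold fall lay outside the interval.

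Hbegf, the heparin-binding ligand, stood at 8.91 in each pool, at 8.72 in tumour 1 and at 9.35 in tumour 2. The tumours lay on either side of the pools. The change was 0.13 (SE 0.21, 95% interval -0.41 to 0.67, limma adjusted p = 0.755), and its sign turned without tumour 2 (-0.18).

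Btc, which encodes betacellulin, was at 5.76 and 5.78 in the pools and at 5.97 and 5.88 in the tumours. The groups were apart by a small margin. The change was 0.15 (SE 0.10, 95% interval -0.10 to 0.40, limma adjusted p = 0.377) on a probe set as dim as that of Erbb2, with its mean at the 29.8th percentile.

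The gap between tumours was wider than the gap between pools in 9 of 10 members, all but Nrg3, and in 55.8% of all genes. Each pool held cells of 2 tumours. It passed 0.41, the 90th percentile of all genes, in 4: Egfr and Hbegf were higher in tumour 2, by 0.75 and 0.62, whereas Erbb3 and Erbb4 were higher in tumour 1, by 0.69 and 0.72. Between pools, Egfr (0.47) and Nrg3 (0.46) passed the matching mark of 0.33. Of 12 pericyte and fibroblast markers, 1 fell (Rgs5, -0.56) and 0 rose, and their median log2 value was 6.09 in tumour 1 and 8.83 in tumour 2, against 6.51 and 6.35 in the pools. Of 10 endothelial markers 1 fell (Slco1a4, -1.44), and their summed linear value was 602 in tumour 1, 1073 in tumour 2, and 1248 and 771 in the pools. The called shares of these lists were 8.33% and 10%, against 14.7% of all genes. Rgs5 lost its call with any 1 sample left out and Slco1a4 without either pool. The part of such cells in the higher Egfr and Hbegf values of tumour 2 was not tested.

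**Figure D3:**
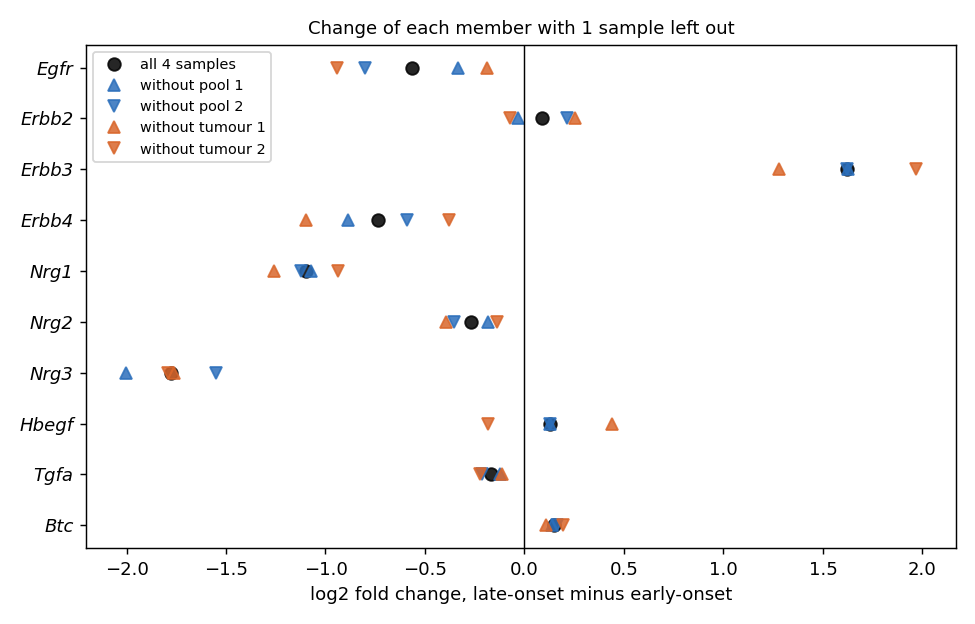
Log2 fold change of each gene with all 4 samples (black) and with 1 pool (blue) or 1 tumour (orange) left out. Erbb3 stays between 1.28 and 1.97, Nrg1 between -1.26 and -0.94 and Nrg3 between -2.004 and -1.55, whereas Erbb2 and Hbegf fall on both sides of 0.

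Schwann cell and neural crest genes, which share Erbb3 as the receptor of their lineage, were partly higher with it. Of 10 measured, 3 rose and 0 fell, which is 30% called against 14.7% of all genes. The 3 were the cadherin gene Cdh19 (1.64), Egr2 (1.24) and the peripheral myelin gene Pmp22 (0.78). Egr2 is a transcription factor gene of myelinating Schwann cells that is also an immediate early gene. Mal (-1.38) and Sostdc1 (-1.08) were lower in both tumours than in both pools but were not called (limma adjusted p = 0.0887 and 0.0897). Cdh19 lies on chromosome 1, and the part of that chromosome in its tumour 1 value was not tested. The summed linear value of the 10 was 4871 and 4588 in the pools and 7561 and 7755 in the tumours, with Pmp22 the brightest. The median change of the 10 was 0.17, with 7 above 0 and 3 below. The median of their log2 values was lower in the tumours (6.81 and 7.28) than in the pools (7.80 and 7.89). That median depends on which genes rank in the middle. Among 11 oligodendrocyte genes, 2 rose and 3 fell (45.5% called). The tight junction gene Cldn11 was higher by 2.07 and the myelination factor gene Myrf by 1.39 (limma adjusted p = 0.0203). The myelin genes Mobp (-2.62) and Mbp (-1.45) were lower, as was Aspa (-0.97, limma adjusted p = 0.00618). Cdh19 lost its call without pool 2, tumour 1 or tumour 2 (limma adjusted p at most 0.0949) and with robust eBayes (0.0505), as Mobp did (0.0504), and Egr2, Pmp22, Mobp and Mbp lost theirs without either pool (limma adjusted p = 0.061 to 0.137). The part of these cells in the Erbb3 rise was not tested.

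Genes were ranked by likeness of pattern over the 4 samples, with predicted genes (names starting Gm and a digit or ending Rik) passed over. The nearest to Erbb3 were Hspg2, which encodes the basement membrane proteoglycan perlecan, Tex16 and Ndst3, a heparan sulfate modifying enzyme gene. Likeness was the root mean square difference of values centred on each gene's own mean, and these differed from Erbb3 by 0.08, 0.13 and 0.13. Their changes were 1.47, 1.63 and 1.78, and each was higher in tumour 1 than in tumour 2, as Erbb3 was. Nearest to Nrg1 were Tbc1d30 (0.02), Lrrtm4 (0.02), a synaptic adhesion gene, and Stard9 (0.03), with changes of -1.13, -1.05 and -1.10. Nearest to Nrg3 were Fmnl1 (0.08), a formin gene of blood cells, Naip6 (0.08), an innate immune gene of a family of near-identical copies that may share its signal, and Etnppl (0.08), an astrocyte enzyme gene, with changes of -1.64, -1.81 and -1.73. As these genes were chosen for likeness to a member, their like changes and order of samples follow from the choice. With 4 samples in 2 groups, many genes share such a pattern.

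The rest of the pathway was read from 6 lists of 84 genes, of which 76 were measured. Of these, 2 rose, 8 fell and 66 were not called, which is 13.2% called against 14.7% of all genes, and their median change was 0.00. By list the called share ran from 0% to 18.2%. Among the 4 other ErbB ligands measured, 0 were called by limma and 0 had an unadjusted p under 0.05. Ereg, which encodes epiregulin, stood at 0.31 (limma adjusted p = 0.195) and Nrg4 at -0.12 (limma adjusted p = 0.583). Areg was not among the genes analysed.

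Of 12 genes that process ligands, 1 rose and 1 fell. Rhbdf2, which encodes iRhom2, a partner of the sheddase ADAM17, fell from 7.94 and 7.60 in the pools to 6.48 and 6.41 in the tumours. The change was -1.33 (SE 0.14, limma adjusted p = 0.007). Rhbdf1, of the same list, was higher in both tumours than in both pools, at 0.89, but was not called (SE 0.26, limma adjusted p = 0.0814). Adam19, a metalloprotease gene whose product can cleave neuregulins, rose by 1.08 (SE 0.20, limma adjusted p = 0.025), from 8.26 and 8.07 to 8.98 and 9.50. The Adam19 call was lost without pool 1 (limma adjusted p = 0.0903) or pool 2 (limma adjusted p = 0.141).

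Of 22 adaptors and effectors at the receptor, 4 fell and 0 rose, which is 18.2% called against 14.7% of all genes. The groups did not overlap in 15 of the 22, where 58.9% of all genes did not overlap. The adaptor genes Shc2 (-0.75) and Shc3 (-0.43), the STAT gene Stat5b (-0.49) and the kinase gene Src (-0.42) each lay lower in both tumours than in both pools. Shc2 lost its call without either pool (limma adjusted p = 0.0666 without pool 1 and 0.0855 without pool 2). Stat5b, Shc3 and Src lost theirs with any 1 sample left out, and Shc3 and Src also after each array's median was subtracted (limma adjusted p = 0.0608 and 0.0667).

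Of 7 RAS and MAPK genes measured, 0 rose and 0 fell by limma, with Map2k2 at 0.25 (limma adjusted p = 0.189) and Nf1 at -0.26 (limma adjusted p = 0.206), and 0 had an unadjusted p under 0.05. Of 16 PI3K and AKT genes, 2 fell and 0 rose. These were Pik3cg (-2.06, SE 0.17, limma adjusted p = 0.00415) and Pik3cd (-1.11, SE 0.10, limma adjusted p = 0.00476), the catalytic subunit genes that are used mainly in white blood cells. Both moved beside the macrophage and microglia markers, of which 13 of 14 fell and 0 rose, with Ly86, Itgam and Csf1r at -4.70, -4.23 and -4.11. Their part in the lower Pik3cg, Pik3cd and Rhbdf2 values was not tested.

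Of 15 negative regulators, Ptprj, a receptor phosphatase gene, fell by 0.69 (limma adjusted p = 0.0412), and Sh3kbp1, which encodes the adaptor CIN85 of receptor endocytosis, rose by 0.63 (limma adjusted p = 0.0386). Both calls were lost with any 1 sample left out, and that of Sh3kbp1 also after cyclic loess (limma adjusted p = 0.0516). Without pool 1 or pool 2 the count of called pathway genes was 3 each time, and without tumour 2 it was 6. Rhbdf2, Pik3cg and Pik3cd were called in all 13 settings.

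**Figure D4:**
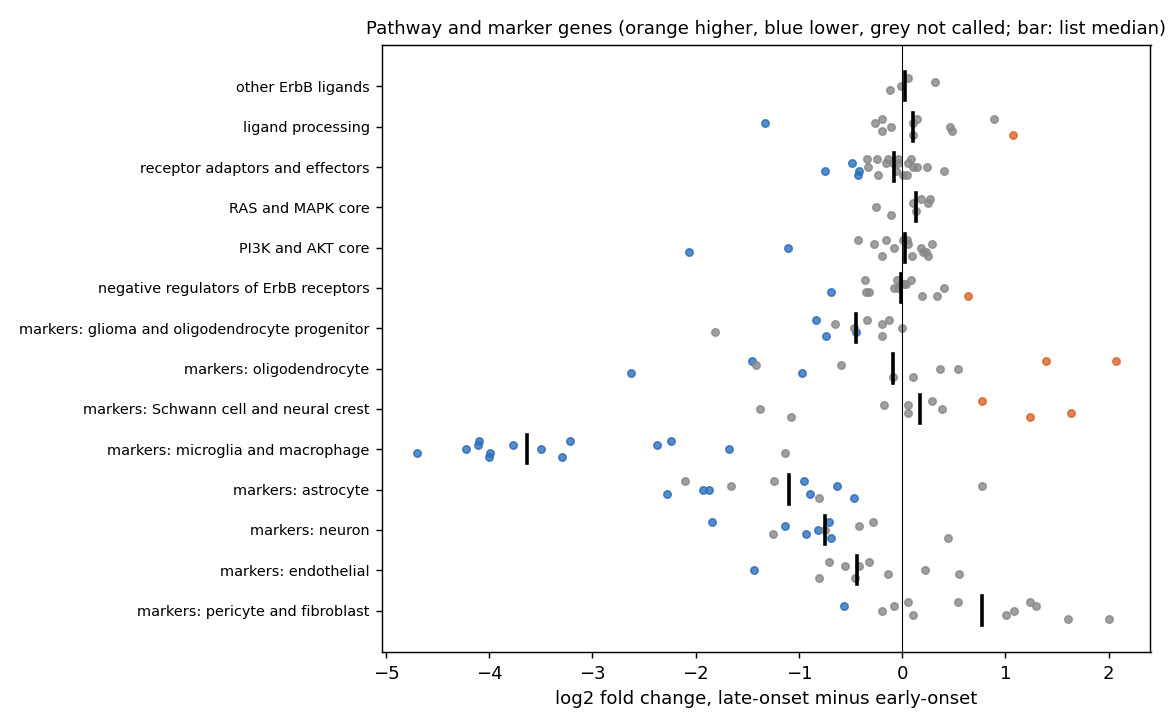
Log2 fold change, late-onset minus early-onset, of each measured gene of the 6 pathway lists and the 8 marker lists (orange higher, blue lower, grey not called), with a bar at the list median. The pathway medians lie between -0.08 and 0.13, and the median of the macrophage and microglia markers lies at -3.63.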

How the data were processed

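RNA of sorted cells was labelled for Affymetrix mouse arrays, 4 in all. The deposited values are log2 probe set summaries, made with RMA and affy 3.4.2 per the submitters' processing notes, with no parameters given. Because RMA equalises the arrays, a shift common to most genes is invisible. Of 34760 probe sets, 21640 had 1 gene symbol in the platform annotation, 1321 several and 11799 none. Those with several or none were left out. Each gene kept its brightest probe set, and no dim gene was removed. The late-onset minus early-onset contrast was fitted by limma 3.58.1 under R 4.3.3 (lmFit, eBayes), with 2 residual degrees of freedom, a prior of 3.27 and Benjamini-Hochberg adjustment over 19937 genes. Having 4 arrays limits the precision. Replicates are biological, per the labels.

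The members and gene lists were chosen with earlier results of these data known. All members are named. Each pathway list names up to 4 called genes by size of change, or 2 by moderated t where none was called, each marker list up to 3 called genes, and each called member its 3 nearest genes in pattern. Sox10, Olig2 and Areg are named outside this rule. So are Neu4, Rhbdf1, Myrf, Aspa, Mal, Sostdc1, Nefm and Sox9, each picked with its result already known. On simulated arrays with 200 changed genes, the test recovered 36.7% of log2 changes of 1 and 96.3% of log2 changes of 2. Alternatives covered the variance model, scaling, a filter, probe sets, array weights, the replicate block and each sample left out.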

Additional observations from a re-analysis of the deposited data

How the results depend on the processing

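With 1 sample left out, the number of called members ran from 1 to 4, of called pathway genes from 3 to 7 and of all called genes from 850 to 2577. Without pool 1 or pool 2, Nrg3 was the one called member. The change of Erbb3 ran from 1.28 to 1.97, of Nrg1 from -1.26 to -0.94 and of Erbb4 from -1.10 to -0.38. The sign was not kept by Erbb2 (-0.071 to 0.25), Hbegf (-0.18 to 0.44) or Nrg4 (-0.25 to 0.0048). Under the 9 other settings, the 3 called members kept direction and call, with Erbb3 at 1.53 to 1.68, and no member changed sign. With the replicate number as a block, 1833 genes and 6 pathway genes were called, and the same 3 members. The numbers only name samples: deviations of same-numbered samples correlated at -0.04. That block also ended the calls of Adam19, Stat5b, Shc3, Src, Sh3kbp1, Cspg5, Pdgfra and Rgs5. The count below covers only list genes named by the naming rule. Over the 30 called list genes named, 78 of 388 results under another setting lost the call, 57 of them with 1 sample left out, and the cause was not tested.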
